A study of Mus musculus with 10 samples.

Results

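The genes described here encode the triad and excitation-contraction coupling machinery of skeletal muscle. They are 10 genes chosen by name, Cacna1s, Cacnb1, Cacng1, Stac3, Ryr1, Ryr3, Jph1, Jph2, Trdn and Jsrp1, out of 23388 genes listed in all 4 deposited tables, and all 10 had a row in every table. RNA was sequenced from C2C12 cells, a mouse myoblast line that fuses into myotubes when serum is lowered, to ask how Huwe1, a ubiquitin ligase, and USP10, a deubiquitinase, affect gene expression during differentiation. Huwe1 knockdown was compared with control in myoblasts on day 0, on day 6 of differentiation and in myotubes on day 8, and USP10 overexpression was compared with control on day 6. In the Huwe1 tables the control column is 1 library and the knockdown column pools 2 libraries, and the USP10 table has 1 column on each side.

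All cultures came from the same parental line, grown in DMEM with fetal bovine serum and differentiated in DMEM with horse serum. For days 0 and 6, the control libraries are labelled wild type, and the knockdown cells carried 1 of a pair of lentiviral hairpins (shRNAs) against Huwe1 and had been selected with puromycin as myoblasts. The hairpins given in the sample labels for these days differ from those in the methods. For day 8, differentiated cultures received the Huwe1 hairpin viruses on day 4 and then puromycin, and the control is labelled as non-targeting, although its column is headed as wild type. The USP10 cells were a line that stably expressed USP10 cDNA from the EF1a promoter. The control column of the USP10 table carries the same day 6 wild-type name as that of the Huwe1 table but holds other values, and it could not be assigned to a particular library.

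In skeletal muscle, an action potential runs along the transverse tubules into the fiber, where each tubule is flanked by cisternae of the sarcoplasmic reticulum to form a triad. The voltage-gated calcium channel of the tubule membrane, whose pore subunit is Cacna1s, senses the depolarization and opens the ryanodine receptor of the reticulum through mechanical contact. Junctophilins hold the membranes together, and triadin and JP-45, the Jsrp1 product, sit in the reticulum membrane beside the release channel. These components are laid down as myoblasts become myotubes.

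In mm10 coordinates as the tables list them, the genes lie on 5 chromosomes. Chromosome 1 holds Cacna1s from 136052901 to 136119822 and Jph1 from 16994940 to 17097889, and chromosome 2 holds Ryr3 from 112631382 to 113030331 and Jph2 from 163336242 to 163397993. Ryr1 lies on chromosome 7 from 29003340 to 29125151. Chromosome 10 holds Stac3 from 127501717 to 127508815, Trdn from 33083483 to 33476709 and Jsrp1 from 80808496 to 80813498. Chromosome 11 holds Cacnb1 from 98002901 to 98022627 and Cacng1 from 107703218 to 107716476. The GENCODE M21 annotation holds from 1 transcript, for Cacng1, to 12, for Ryr3.

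RefSeq promoter sequences were matched for 4 of the 10 genes, Cacna1s, Cacnb1, Ryr1 and Jph2, with 6 annotated starts between them. The 250 bases before each start were searched on both strands for TATAAA, for the E-box CAGCTG, a sequence recognized by myogenic basic helix-loop-helix factors, for CATTCC, the MCAT element recognized by TEAD factors, and for the MEF2 consensus. An E-box was found before Cacna1s and before both starts of Jph2, whose windows overlap and hold the same single site. An MCAT element stood next to the Cacna1s E-box, with 1 base between them. TATAAA and the MEF2 consensus were in none of the 6 windows, and none of the 4 motifs was before Ryr1 or either start of Cacnb1. Among 32851 promoters of the same length, 13.0% held the E-box, 12.6% the MCAT element, 12.4% TATAAA and 2.92% the MEF2 consensus. Matches of this kind describe the letters in the window and do not show binding. Sequences are given for the genes whose window holds TATAAA or the E-box. They are written 5′ to 3′ on the coding strand of GRCm38.p6 and end at the base before the outermost GENCODE transcript start, with the matched motifs in capitals. The Cacna1s stretch is chr1:136052561-136052749 on the plus strand, where GGAATG is the MCAT element read on the other strand and the E-box begins 62 bases before that start. The Jph2 stretch is chr2:163397994-163398243 on the minus strand, and its E-box begins 9 bases before the start.
Cacna1s: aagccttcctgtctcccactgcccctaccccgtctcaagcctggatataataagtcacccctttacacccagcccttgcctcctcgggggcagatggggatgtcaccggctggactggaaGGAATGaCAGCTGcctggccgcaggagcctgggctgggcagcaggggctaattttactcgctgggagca
Jph2: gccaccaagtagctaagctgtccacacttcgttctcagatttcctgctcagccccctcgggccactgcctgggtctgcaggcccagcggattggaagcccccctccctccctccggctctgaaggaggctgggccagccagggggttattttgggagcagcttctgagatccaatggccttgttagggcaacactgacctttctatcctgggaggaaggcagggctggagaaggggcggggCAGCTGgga

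Values are FPKM, fragments scaled to transcript length and to library size, with 1 value per condition. No value has a replicate error, so no replicate test between conditions could be made, and the authors' Cuffdiff tests were not used. Changes are log2 ratios of treated to control FPKM with 0.01 added to each, which slightly understates changes of low genes, and genes at 1 FPKM or more in at least 1 column of a table were counted. The same counts over all such genes are given beside those of the coupling genes. The distance between the control columns of day 6, both headed as wild type, was the only measure of how far columns of like name can lie apart. Whether these columns came from the same culture is not known. Because the RNA came from whole cultures, fewer myotubes and less RNA of a gene per myotube cannot be told apart.

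The USP10 table's control had an estimated depth of 7780000 fragments and the other controls and the USP10 column had 18100000 to 29900000, and pooled columns gave no estimate. Huwe1 was 38.3 FPKM in the day 0 control and 15.2 in the knockdown, 35.1 and 21.9 on day 6, and 55.4 and 33.0 on day 8. Usp10 was 10.3 FPKM in the control and 38.3 in the USP10 cells, and it was also 13.2 in the day 6 control and 35.4 in the day 6 Huwe1 knockdown.

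The coupling genes went from low or absent in myoblasts to abundant in myotubes of the control. In the day 0 control, Cacng1 had the highest level at 25.1 FPKM and Jph2 the next at 11.3, the median of the 10 genes was 2.54, and Cacna1s was listed at 0, below the 0.0220 FPKM that 3 fragments would give. Ryr1, Ryr3 and Trdn were also under 1 FPKM, and the Trdn value of 0.0388 rested on about 4 fragments. In the day 6 control the median was 125 FPKM, from 7.98 for Ryr3 to 455 for Cacng1, and all 10 genes were at least 2-fold above day 0, against 21.5% of all genes. These levels come from tables that were normalized separately, so the difference is a description. It was smallest at 9.44-fold for Jph1, 10.4-fold for Jph2 and 18.1-fold for Cacng1. For Cacnb1, also present in myoblasts, it was 68.5-fold, and for the release channel gene Ryr1 it was 209-fold. By day 8 the control median was 77.2 FPKM. On the deposited values, Cacna1s alone was at least 2-fold below its day 6 control, 62.2 against 147 FPKM, where 5.81% of all genes were that much lower. With the columns centred on the median gene, Cacng1 (2.04-fold) and Jsrp1 (2.00-fold) reached that distance too. Stac3 was slightly higher, 70.4 against 61.2.

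**Figure D1:**
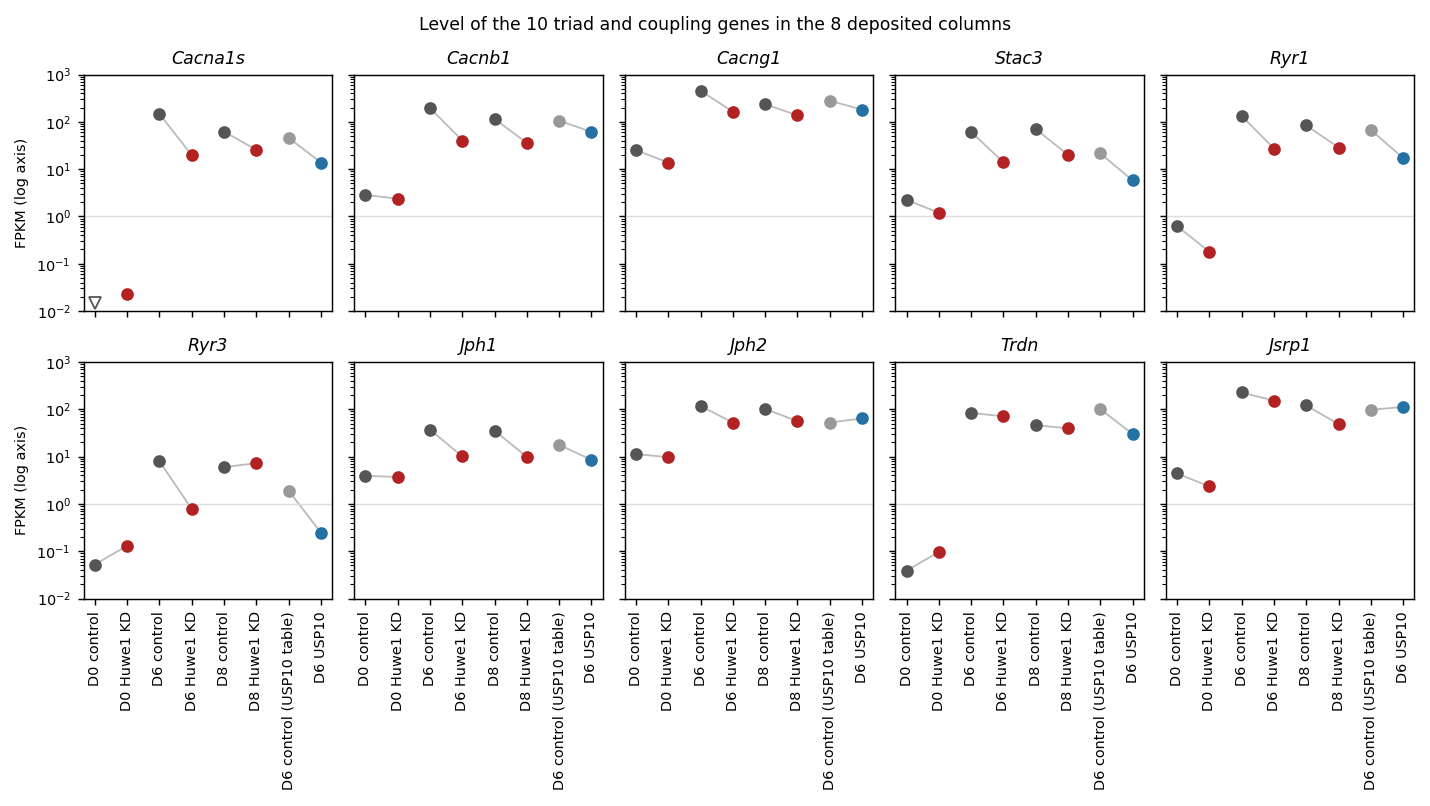
FPKM (log axis) of each gene in the 8 deposited columns, with a grey line joining the control and treated value of each table and an open triangle for a value listed at 0. D is the day and KD the knockdown. Apart from Ryr3, every gene lies above 5 FPKM in all day 6 and day 8 columns, and the treated points mostly lie below their controls.

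In myoblasts on day 0, none of the 10 genes changed 2-fold among the 6 that reached 1 FPKM, where the decreases of 2-fold or more took in 1.69% of all genes and the increases 1.90%. All 6 were nevertheless lower in the knockdown, with a median log2 ratio of -0.56 against 0.00 over all genes. Cacng1, an auxiliary subunit of the channel, had 25.1 FPKM in control and 13.8 in knockdown myoblasts, a log2 ratio of -0.86. Stac3, the adaptor that brings the channel to the triad and couples it to the release channel, was 2.24 and 1.20 FPKM (-0.89), and Jsrp1 was 4.40 and 2.34 (-0.91). The channel's cytoplasmic subunit gene Cacnb1 and both junctophilin genes differed by at most 0.25 on this scale. Ryr1, at 0.626 and 0.179 FPKM, and Ryr3, Trdn and Cacna1s, all at or below 0.131, were too low to be counted.

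On day 6, 8 of the 10 genes were at least 2-fold lower in the Huwe1 knockdown and none was at least 2-fold higher, where 13.4% of all genes were that much lower and 17.6% that much higher. The median log2 ratio of the 10 genes was -2.01, against -0.01 over all genes. Ryr3 and Cacna1s had the greatest decreases, and Trdn and Jsrp1 were the genes within 2-fold of the control.

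The genes of the voltage-sensing channel were all lower. Cacna1s, the pore and voltage sensor, was 147 FPKM in the day 6 control and 19.7 in the knockdown, 7.45-fold lower. Cacnb1, which brings the pore subunit to the membrane, was 195 and 40.2 FPKM, 4.86-fold lower, and Cacng1 was 455 and 164, 2.78-fold lower. Cacng1 had the smallest change of these and remained the highest of the 10 genes in both columns. The Stac3 level was 61.2 and 14.0 FPKM, 4.36-fold lower.

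The release channel genes were lower as well. Ryr1, the main isoform of skeletal muscle, was 133 FPKM in the day 6 control and 27.3 in the knockdown, 4.86-fold lower. Ryr3, an isoform found mostly in developing muscle, was 7.98 and 0.782 FPKM, 10.1-fold lower. Ryr3 was thus 6.00% of Ryr1 in the control and 2.86% in the knockdown, while it was 2.85% in the other day 6 control, that of the USP10 table.

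Jph1 and Jph2, the junctophilins of skeletal and of skeletal and cardiac muscle, differed in size of change. Jph1 was 37.3 FPKM in control and 10.1 in knockdown cells, 3.70-fold lower, while Jph2 was 118 and 52.4, 2.25-fold lower. Trdn and Jsrp1, whose products sit beside the release channel, had the smallest changes of the 10 transcripts. Trdn was 84.0 and 71.1 FPKM, a log2 ratio of -0.24, and Jsrp1 was 227 and 153, a log2 ratio of -0.57. In the knockdown column Trdn therefore stood at 2.60 times the Ryr1 level, compared with 0.632 in the control. Jsrp1 stood at 5.60 times the Ryr1 level, compared with 1.71. In the other day 6 control, that of the USP10 table, Trdn was also above Ryr1, at 101 and 67.2 FPKM. The proportion of Trdn to Ryr1 thus differed between the day 6 controls as well, while Jsrp1 was 1.46 times Ryr1 in the other control.

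**Figure D2:**
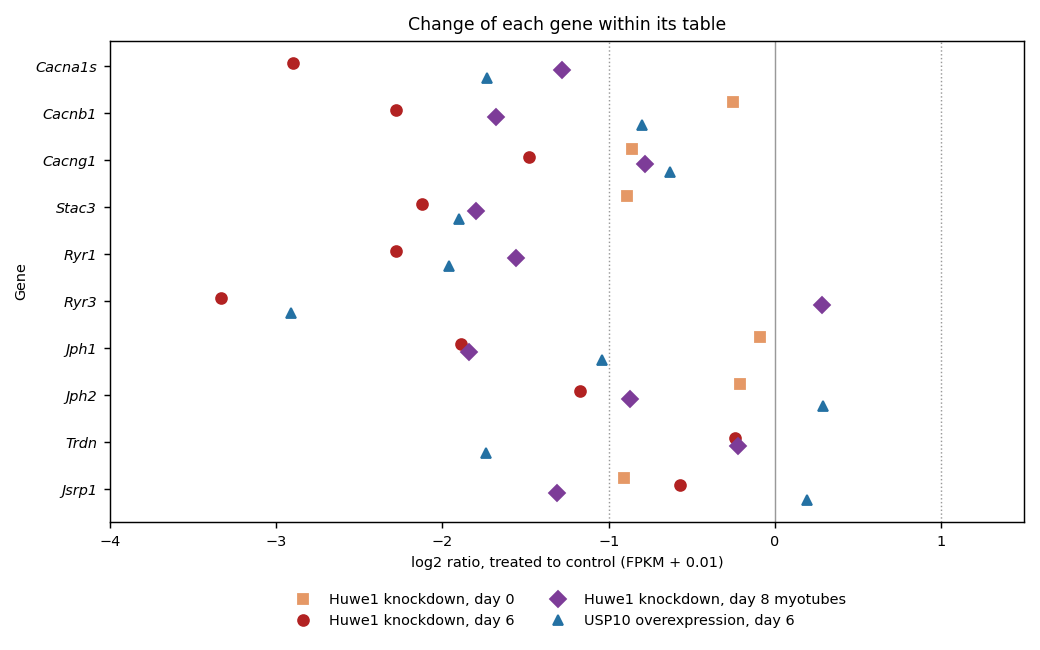
Log2 ratio of treated to control FPKM for each gene in each table, with dotted lines at 2-fold and genes under 1 FPKM in both columns left out (4 genes on day 0). Most points on day 6 and day 8 lie left of the lower dotted line, and Ryr3, Jph2, Trdn and Jsrp1 each have points near 0.

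In day 8 myotubes, where the Huwe1 virus was added after differentiation had begun, 6 of the 10 genes were at least 2-fold lower in the knockdown and none was at least 2-fold higher, where 10.0% of all genes were that much lower and 7.89% that much higher. The median log2 ratio was -1.30, against 0.00 over all genes, and 9 of the 10 genes were below 0.

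Cacna1s was 62.2 FPKM in the day 8 control and 25.6 in the knockdown, 2.43-fold lower. Cacnb1 was 115 and 35.8 FPKM, 3.21-fold lower, and Stac3 was 70.4 and 20.1, 3.49-fold lower. Cacng1, at 237 and 137 FPKM, was within 2-fold, so that again it changed least among the genes of the channel and its adaptor. Ryr1 was 84.1 and 28.6 FPKM, 2.94-fold lower, and Jph1 was 35.4 and 9.86, 3.59-fold lower. Jph2 was 102 and 56.1 FPKM, within 2-fold, and Trdn was 46.2 and 39.7, close to the control as on day 6. Jsrp1, in contrast to day 6, was 121 and 48.5 FPKM, 2.48-fold lower.

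Ryr3 was the one gene above its control on day 8, at 7.29 FPKM in the knockdown and 6.00 in the control, a log2 ratio of 0.28. It made up 7.13% of the Ryr1 level in the control and 25.5% in the knockdown. On day 6 the order was the opposite against the same table's control, at 6.00% and 2.86%. The other day 6 control, at 2.85%, was level with the day 6 knockdown. The day 8 difference of 1.21-fold was smaller than the 4.15-fold distance between the day 6 controls for this gene. The difference between the days was not tested. The Aven gene on the opposite strand shares 916 exonic bases with Ryr3, 4.83% of its exonic bases, and whether counting used strand is not given in the sources used here.

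Set side by side across tables, the knockdown columns of day 6 and day 8 were at least 2-fold apart for 2 of the 10 genes, a share near the 27.7% of all genes. The median log2 difference of the 10 genes was 0.02. Ryr1 was 27.3 and 28.6 FPKM, Jph1 was 10.1 and 9.86, and Jph2 was 52.4 and 56.1. The exceptions were Ryr3, at 0.782 and 7.29 FPKM, and Jsrp1, at 153 and 48.5. All 9 genes that reached 1 FPKM in a day 0 or day 6 knockdown column were at least 2-fold higher on day 6, against 19.1% of all genes. Over all 10 genes the median log2 difference from day 0 to day 6 was 3.82 in the knockdown and 5.89 in the control.

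With USP10 overexpression on day 6, 6 of the 10 genes were at least 2-fold lower than in the control of the same table and none was at least 2-fold higher, where 10.0% of all genes were that much lower and 9.70% that much higher. The median log2 ratio was -1.39, against 0.05 over all genes. The genes at least 2-fold lower were Cacna1s, Stac3, Ryr1, Ryr3, Jph1 and Trdn.

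Cacna1s was 45.9 FPKM in this control and 13.8 in the USP10 cells, 3.32-fold lower, and Stac3 was 21.6 and 5.78, 3.73-fold lower. Cacnb1, at 106 and 61.2 FPKM, and Cacng1, at 280 and 181, were within 2-fold. The auxiliary subunits therefore differed less than the pore subunit, with Cacng1 at 6.11 times the Cacna1s level in the control and 13.1 times in the USP10 cells. In the other day 6 control, that of the Huwe1 table, Cacng1 was 3.10 times Cacna1s. This proportion thus differed between the day 6 controls as well. Ryr1 was 67.2 and 17.3 FPKM, 3.88-fold lower, and Ryr3 was 1.91 and 0.247, 7.50-fold lower, the latter value resting on about 105 fragments. Both ryanodine receptor genes were lower, and Ryr3 was 2.85% of Ryr1 in the control and 1.42% in the USP10 cells.

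The junctophilin and reticulum membrane genes divided. Jph1 was 17.7 and 8.59 FPKM, 2.05-fold lower, while Jph2 was 52.5 and 64.1, a log2 ratio of 0.29. Trdn was 101 and 30.1 FPKM, 3.35-fold lower, while Jsrp1 was 98.2 and 112, a log2 ratio of 0.19. Trdn and Jsrp1, both near their controls in the day 6 Huwe1 table, thus lay apart in the USP10 table.

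Relative levels of some partners were set side by side within a column. The Ryr1 level was 0.905 times that of Cacna1s in the day 6 control and 1.39 times in the knockdown. It was 1.35 and 1.12 times on day 8, and 1.46 and 1.25 times in the USP10 table. The proportion of release channel to voltage sensor transcripts thus ranged from 0.905 to 1.46 in these 6 columns. Both ends of this range were day 6 controls. The Jph1 level was 0.317 times that of Jph2 in the day 6 control and 0.192 in the knockdown, 0.347 and 0.176 on day 8, and 0.336 and 0.134 in the USP10 table. The ratio of the junctophilins was close in these 3 controls and lower in each treated column of days 6 and 8, but on day 0 it was 0.349 in the control and 0.380 in the knockdown. The Jsrp1 level was between 1.43 and 1.71 times that of Ryr1 in the 3 controls and in the day 8 knockdown, and 5.60 and 6.47 times in the day 6 knockdown and the USP10 cells.

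**Figure D3:**
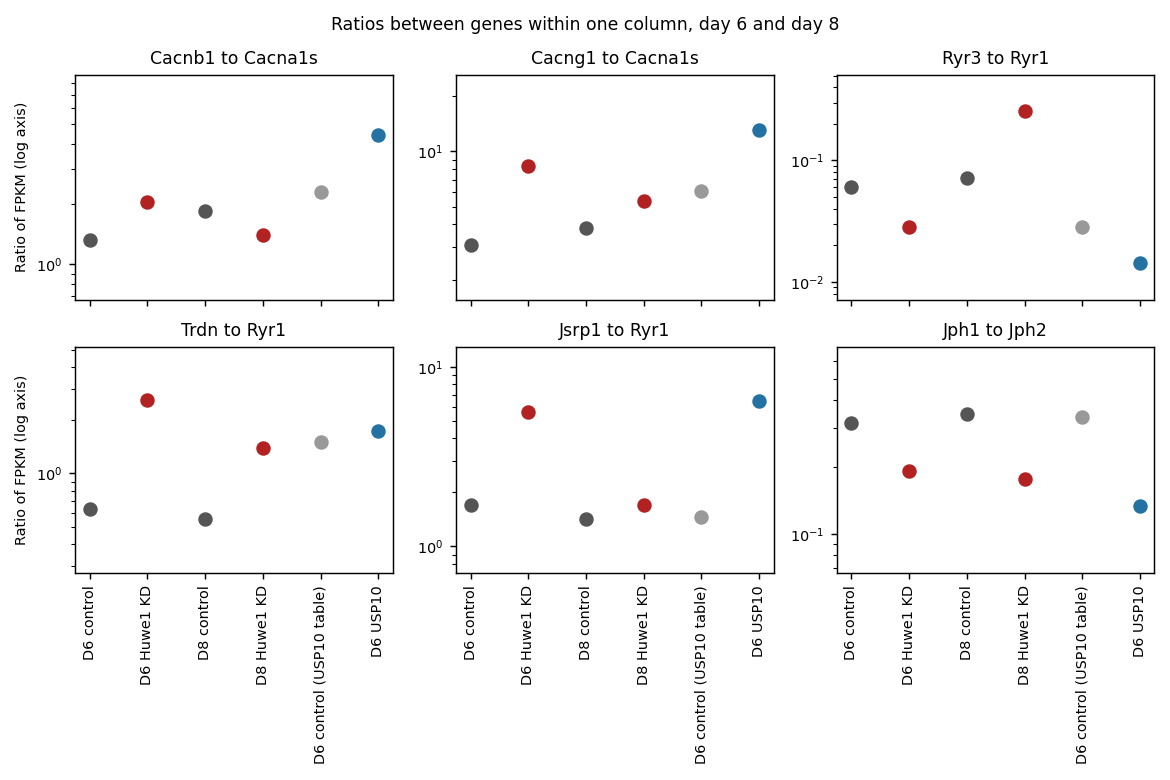
Ratio of FPKM (log axes, each panel with its own range) between 6 pairs of genes within the same column on days 6 and 8, with controls in grey, Huwe1 knockdown in red and USP10 in blue. The junctophilin ratio lies between 0.317 and 0.347 in the 3 controls and between 0.134 and 0.192 in the 3 treated columns.

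The day 6 control columns differed from each other in the same genes. The Huwe1 table's control was at least 2-fold above the USP10 table's control for 6 of the 10 genes, where 19.9% of all genes were at least 2-fold apart in either direction. The median log2 difference of the 10 genes was 1.12, and the robust SD over all genes was 0.63. Cacna1s was 147 and 45.9 FPKM, a 3.20-fold distance, Stac3 was 61.2 and 21.6, and Ryr3 was 7.98 and 1.91. Trdn ran the other way, at 84.0 and 101 FPKM. The change with Huwe1 knockdown on day 6 was larger than this distance for 8 of the 10 genes, though for Jph2 only by 2.25-fold against 2.24-fold. The change with USP10 was larger for 5 of the 10 genes, Ryr1, Ryr3, Stac3, Trdn and, by 3.32-fold against 3.20-fold, Cacna1s. Each change shares a control column with this distance, so the distance is not an independent spread. For a gene higher in the Huwe1 table's control, a larger change with Huwe1 knockdown only means a level below the other control. Jph2 was 52.4 FPKM in the knockdown and 52.5 in that control.

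The choice of control changed the day 6 counts. Against the USP10 table's control, with ratios centred on the median gene, the Huwe1 knockdown column was at least 2-fold lower for 4 of the 10 genes. The share over all genes was 10.6%. The 4 genes were Cacna1s (-1.27), Cacnb1 (-1.46), Ryr1 (-1.35) and Ryr3 (-1.34), and the median of the 10 was -0.85. Jsrp1 turned to 0.59 and Jph2 to -0.06. Against the Huwe1 table's control, the USP10 column was at least 2-fold lower for 9 of the 10 genes, all but Jph2, with a median of -1.89. Jsrp1, at -1.01, was at the threshold. Of all genes, 15.3% were that much lower. Cacna1s, Ryr1 and Ryr3 were at least 2-fold lower under either control in both day 6 comparisons.

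**Figure D4:**
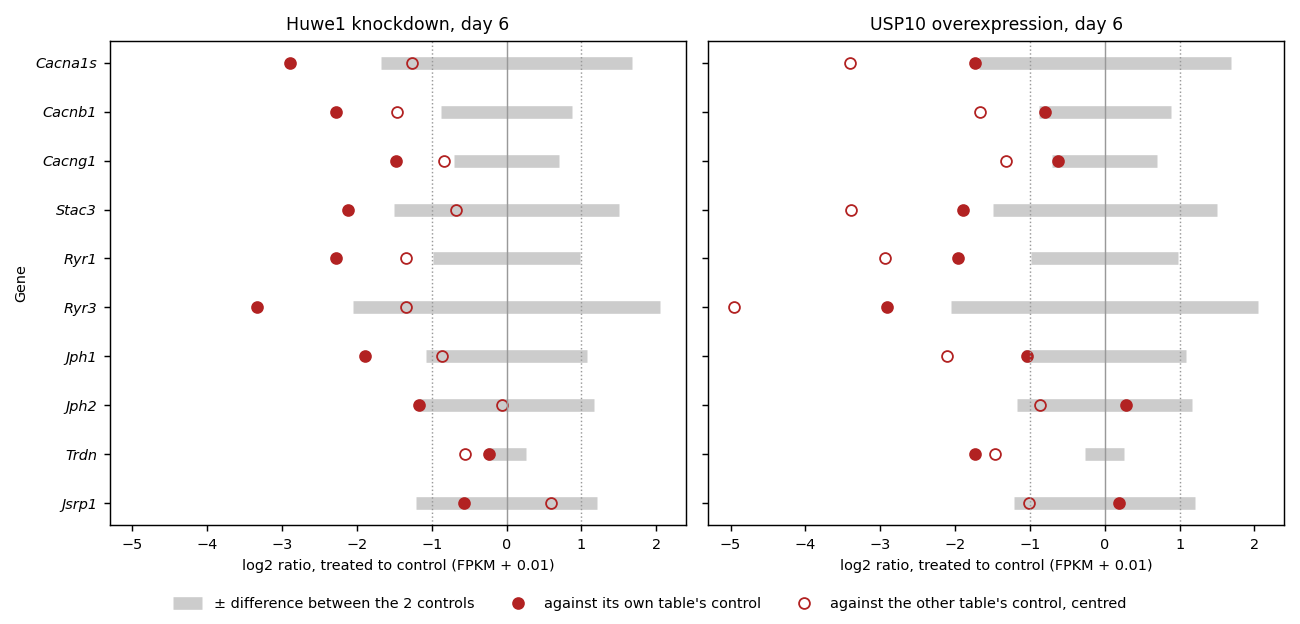
Log2 ratio of each gene on day 6 against its own table's control (filled points) and against the control of the other day 6 table (open points), with a grey bar reaching as far on either side of 0 as the log2 difference between the controls. Filled points outside the bar changed by more than the controls differed, as for Ryr1 and Ryr3 in both panels.

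The wider list of 29 other genes of the triad, the transverse tubule and the coupling channels moved less as a list. On day 0, 14 were counted, of which none was at least 2-fold lower and 3 were at least 2-fold higher, with a median log2 ratio of -0.14. On day 6, 7 of 20 were at least 2-fold lower and 1 higher, with a median of -0.45. On day 8, 7 of 18 were lower and none higher, with a median of -0.68, and with USP10 6 of 18 were lower and 1 higher, with a median of -0.11. The paralogs Ryr2, Cacna1c, Cacna1d, Jph3 and Jph4, known from heart and brain, stayed at or below 0.0448 FPKM in all 8 columns. Other paralogs were present, with Stac2 at 8.38 to 49.8 FPKM and Cacnb3 at 16.5 to 39.4, and Cacnb2 was 0.671 and 3.52 FPKM on day 0 and 0.0325 and 1.69 on day 6.

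The genes of this list that reached 10 FPKM and changed at least 2-fold were mostly lower. Cav3, the muscle caveolin of forming tubules, was 88.6 FPKM in the day 6 control and 3.19 in the knockdown, 54.6 and 14.3 on day 8, and 28.8 and 2.76 in the USP10 table. Dysf, a membrane repair protein found at the tubules, was 82.3 and 5.17 FPKM on day 6, 41.1 and 15.0 on day 8, and 25.1 and 5.97 with USP10. Bin1, which bends the tubule membrane, was 756 and 321 FPKM on day 6 and 587 and 207 on day 8, but 353 and 323 in the USP10 table. Cav3 and Dysf were thus lower in each of the 3 differentiated comparisons and Bin1 in both Huwe1 tables. Scn4a, the sodium channel of the muscle action potential, was 13.4 and 0.564 FPKM on day 6. Asph, whose junctin product binds the release channel, was 48.1 and 15.7 FPKM on day 8. Mtm1, a lipid phosphatase needed for normal triads, was higher with USP10, at 6.87 and 17.2 FPKM, and was 6.31 and 11.1 FPKM on day 6.

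The 13 genes of the calcium store of the sarcoplasmic reticulum, the group closest in function, were mostly lower in the differentiated cultures and not on day 0. On day 0, 6 were counted and none changed 2-fold, with a median log2 ratio of -0.02. On day 6, 10 of 11 were at least 2-fold lower, with a median of -2.40. On day 8, 7 of 11 were lower, with a median of -2.02, and with USP10 10 of 11 were lower, with a median of -2.26. No counted gene of this list was at least 2-fold higher in any table, and Sln and Pln were under 1 FPKM in every column and were not counted. Whether the lists differ was not tested.

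Across the 8 columns, those of day 0 included, the coupling genes themselves did not share a single profile. After each gene was centred on its own mean, Cacnb1 lay nearest the median profile of the 10, at a root mean square distance of 0.29 log2 units, and Cacna1s and Trdn lay farthest, at 2.81 and 2.26, with their day 0 values at or near 0. Among 12560 genes on no list here, the nearest to this profile were Spry1, at 0.46, Usp2, at 0.46, and Porcn, at 0.50. Cacng1 (0.62), Jsrp1 (0.66), Stac3 (0.74) and Jph2 (0.91) lay closer to it than Jph1 (1.13), Ryr1 (1.17) and Ryr3 (1.31). Ryr1 and Ryr3 were also under 1 FPKM in both day 0 columns. How far these low values set the distances was not tested.

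Myogenic, mesenchymal and proliferation markers also differed between treated and control columns, not all in the same direction. The summed FPKM of 8 myogenic markers was 530 in the day 0 control and 287 in the knockdown, 3269 and 1583 on day 6, 3028 and 1424 on day 8, and 1931 and 1335 in the USP10 table, and on day 6 4 of the 8 were at least 2-fold lower and 1, Myf5, higher. Of these, Myog was 619 and 27.1 FPKM on day 6, 392 and 148 on day 8 and 305 and 28.8 with USP10. On day 6, Trdn and Jsrp1 were within 2-fold of the control in a knockdown column where Myog, a myogenic transcription factor, was 22.8-fold lower. Myog had the largest change of these markers there, and Des (1.63-fold), Chrna1 (1.62-fold) and Cdh15 (1.00-fold) were within 2-fold as well. With USP10, Trdn was 3.35-fold lower and Jsrp1 1.14-fold higher. The 8 mesenchymal or fibroblast markers summed to 125 FPKM in the day 6 control and 4519 in the knockdown, with all 7 counted genes at least 2-fold higher, and to 512 and 4130 in the USP10 table, where 4 of 7 were higher. They summed to 350 and 272 on day 0 and to 509 and 802 on day 8. The 8 proliferation markers summed to 4.45 and 23.4 FPKM on day 6, with all 7 counted genes higher, but to 178 and 16.8 on day 8, with all 8 lower, to 701 and 754 on day 0 and to 16.7 and 13.7 with USP10. The part of these shifts in the results for the coupling genes was not tested.

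Markers of other cell types were mostly low. The 4 endothelial markers summed to 0.106 and 7.92 FPKM on day 6 and to 0.781 and 7.31 with USP10, mostly Cdh5 in the treated columns, while Pecam1 and Kdr stayed at or below 0.346, and they summed to 13.6 and 11.4 on day 0 and to 0.158 and 0.387 on day 8. The 4 macrophage markers summed to at most 4.65 FPKM in any column, and Emr1 was listed at 0 in all 8. The 4 neuron markers summed to 0.655 and 17.4 FPKM on day 6, 1.18 and 6.80 with USP10, 62.1 and 45.5 on day 0 and 4.70 and 1.05 on day 8, with Rbfox3 and Snap25 at or below 0.159 in all 8. The 4 cardiac markers summed to 22.7 and 3.41 FPKM on day 6, 20.4 and 14.3 on day 8, 41.8 and 1.97 with USP10 and 1.37 and 1.52 on day 0.

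Reads of overlapping genes on the opposite strand could enter some values. The antisense gene Gm37759 shares 1309 bases with Cacna1s, 20.0% of its exonic bases. For Ryr1, Gm26604 shares 864 bases (3.96%), and for Cacnb1, Gm11629 shares 80 bases (1.77%). No exonic overlap with an annotated gene was found for Cacng1, Stac3, Jph2, Trdn or Jsrp1.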

How the data were processed

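RNA from C2C12 cells was purified on oligo(dT) beads and made into libraries with the directional ScriptSeq v2 kit. The authors mapped reads with Tophat, the processing notes name Bowtie2, Cuffdiff and mm10, and versions are not given in the sources used here. The deposited values are FPKM as the authors obtained them from Cuffdiff, 1 per gene and condition, normalized separately for each of 4 tables. The tables also hold the authors' log2 fold change, test statistic, p-value and q-value, which were not used. Of 23417 symbols, 21902 were found in GENCODE M21 of GRCm38, and 98.9% of their loci overlapped it.

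Log2 ratios were computed with a pseudocount of 0.01 FPKM over genes at 1 FPKM or more in at least 1 column. No replicate values are held, so no test was run. The 10 genes and all lists were chosen with earlier results of these data known. All 10 were described in each comparison, genes of the wider list were named at 10 FPKM or more in 1 column and at least 2-fold changed (some results are not reported here), calcium store genes were given as counts, and 3 profile neighbors were named. Myog, Myf5 and the marker and paralog genes given with values were named after their values were seen. Depth was estimated from the lowest FPKM values of genes whose transcript has at least 1500 bases. The computations were tested on simulated data. Alternatives were pseudocounts of 0.1 and 1, 3 other filters, centring, completed Cuffdiff tests only and the other day 6 control. The work was done in Python 3.11.15 with pandas 2.3.3, numpy 2.4.6 and matplotlib 3.10.9.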

Additional observations from a re-analysis of the deposited data

Results flagged for a closer look

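Ryr3 was lower on day 6 of the Huwe1 knockdown and near its control on day 8. Its log2 ratio was -3.33 on day 6, from 7.98 to 0.782 FPKM, and 0.28 on day 8, from 6.00 to 7.29 FPKM, a gap of 3.61. Against the other day 6 control its day 6 ratio was -1.34. The day 8 ratio, 1.21-fold, is smaller than the 4.15-fold distance between the day 6 controls, so that no direction is shown for day 8. Each ratio rests on 1 control library and 1 pooled column, and the difference was not tested.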

How the results depend on the processing

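Of the counts and medians of the 10 genes under the alternatives, 86 stayed within 1.5 times of the reported count or within the spread between the day 6 controls, and 4 moved. Without a filter on low values, 1 gene (Ryr1) was at least 2-fold lower and 3 (Cacna1s, Ryr3 and Trdn) at least 2-fold higher on day 0, where the filter had left 0 of each. Of all genes, 4.07% were then that much lower and 7.30% that much higher. The 3 higher genes were at or below 0.131 FPKM in both columns. With the other day 6 control, the Huwe1 knockdown count on day 6 was 4 in place of 8 and the median was -0.85 in place of -2.01. The share of all genes that much lower was 10.6% in place of 13.4%. Of the ratios of single genes, 245 stayed within that spread and 20 moved. The filters only choose which genes are counted and cannot change a ratio, so many of the 245 were bound to stay. With the other day 6 control 18 moved, and Trdn alone stayed, in both comparisons. The other 2 moved with a pseudocount of 1, those of Ryr3 on day 6 with Huwe1 knockdown and with USP10 (-2.33 and -1.23). The cause of the distance between the controls was not tested. No paired analysis was possible because each knockdown column pools the numbered libraries, and leaving out single replicates was not possible for the same reason. The day 0 control values of Trdn and Ryr3 rest on about 4 and 18 fragments, while that of Ryr1 rests on about 210. Changes between the day 6 columns that are smaller than the distance between the controls cannot be told from differences between control columns.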
